A study of Arabidopsis thaliana with 30 samples.

Results

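Roots of the RiD-RGI5/BAK1 line treated with rapamycin were compared with roots of wild type treated with rapamycin, in 3 RNA-seq libraries against 3, out of 30 libraries in the study. RiD stands for rapamycin-induced dimerization, and the line, called the RGI5 line here, carries engineered forms of the receptor kinase RGI5 and of the co-receptor BAK1. The line and the wild type shared the Col-0 ecotype, the age of 7 days after germination, the agent (100 nM rapamycin), the treatment time (4 h) and the tissue (root), and they were chosen by these labels and not by any measured value. Line libraries carried the numbers 1, 2 and 3 and wild-type libraries the numbers 2, 3 and 4. Beside them stood the RGI5 line with mock and wild type with mock, the other 6 libraries of the same set of 12. Another set held the RiD-RGI1/BAK1 line (the RGI1 line) and its own wild type, each with 1 µM rapamycin and with mock, and the remaining set held wild type with the peptide RGF1 (100 nM) and with mock. The promoters of the engineered genes, the number of independent transformants and what made a replicate separate were not given in the sources used here. The p-values and standard errors therefore rest on the spread of libraries within groups, pooled over the libraries of a fit (12 for the RGI5 set). That spread may be technical.

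RGI proteins are leucine-rich repeat receptor kinases that bind RGF peptides, secreted sulfated peptides of the root. On binding they pair with co-receptors of the SERK family, among them BAK1, and signal through a MAP kinase cascade to PLETHORA transcription factors, which maintain the root meristem. The same peptides and receptors are known to act in lateral root formation. In a rapamycin-induced dimerization system the compound takes the place of the peptide by bridging domains fused to each partner, and the compound given to wild type as well shows what it does without the engineered pair.

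Values are TPM, a relative transcript level scaled for transcript length and to a fixed total per library, summed over the transcript models of each locus. TPM keep no read depth, so depth and counting error are unknown. The root markers had a mean of at least 1 TPM in both groups for 10 of 10 genes, with sums of 264 to 296 TPM in the line and 278 to 299 TPM in wild type. Markers of green shoot tissue summed to 116 to 225 TPM in the line, with 9 of 13 genes at a mean of 1 TPM or more and 1 (RBCS1B) at 0, and to 79.8 to 151 TPM in wild type, with 8 of 13 genes at that level and none at 0. Chloroplast-encoded transcripts took 6.13% to 6.63% of the TPM in line libraries and 5.15% to 5.51% in wild-type libraries, and the noncoding RNA AT1G15405 took 5.85% to 6.59% in the line and 6.92% to 9.33% in wild type. Mitochondria-encoded transcripts took 4.31% to 4.53% in the line and 4.04% to 4.11% in wild type. None of these shares overlapped between the groups. With mock, the chloroplast share was 5.08% to 5.39% in the line and 5.13% to 6.71% in wild type. That of AT1G15405 was 8.74% to 9.91% in the line and 5.77% to 9.58% in wild type with mock. The mitochondrial share with mock was 3.77% to 3.96% in the line and 4.03% to 4.54% in wild type. The part of these shares in the results below was not tested.

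The RGI5 line differed from wild type at few loci. Of 19652 loci tested, 22 were called (0.112%), meaning a Benjamini-Hochberg adjusted p under 0.05 from limma, with 11 higher (0.0560%) and 11 lower (0.0560%). The levels of the 22 did not overlap between the groups. Among all loci, 10.4% had line levels wholly above those of wild type and 7.12% wholly below. Over all loci the median log2 difference, line minus wild type on log2(TPM + 1), was 0.02, and the median standard error was 0.11. An unadjusted p under 0.05 was found for 2746 loci (14.0%), of which 1686 were higher (8.58%) and 1060 lower (5.39%), against 983 for a comparison without any difference.

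The number called rested on single libraries. It was 9, 84 and 9 without line library 1, 2 and 3, and 6, 20 and 9 without wild-type library 2, 3 and 4. Median-ratio scaling of the libraries gave 22 calls, 9 higher and 13 lower, with 20 of the first 22 among them, and no locus of the 22 changed direction in any setting tried. The call was kept in every alternative fit that tested the locus, and without each library in turn, at 6 of the 22 loci. They were RGI5, BAK1, QQS, AT1G27565, AT2G01422 and AT4G12500.

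**Figure D1:**
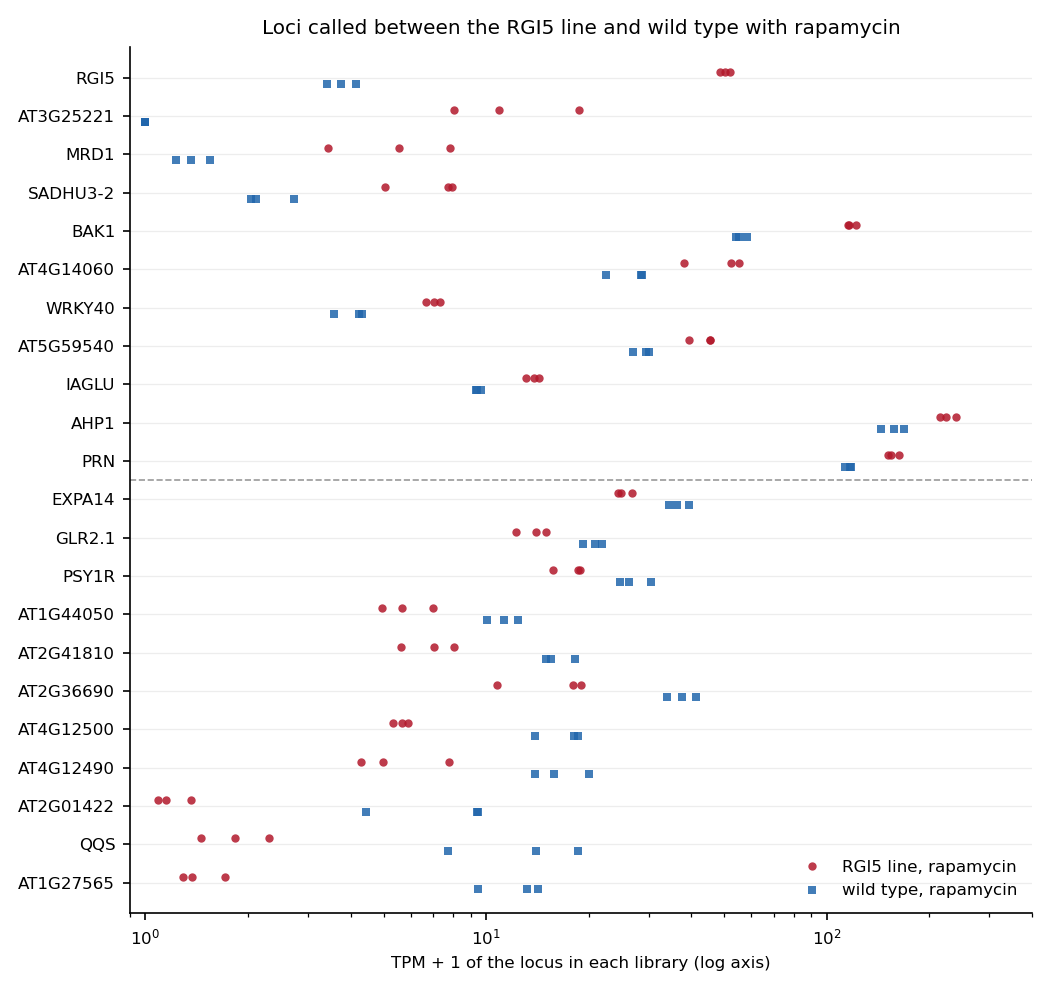
TPM + 1 (log axis) of the 22 called loci in each rapamycin library, with red circles for the 3 RGI5 line libraries and blue squares for the 3 wild-type libraries. The dashed line splits the 11 loci higher in the line from the 11 lower ones, and in each row the circles and squares do not overlap.

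The engineered pair checked the labels. RGI5 (AT1G34110) was at 51.0, 47.7 and 49.1 TPM in the line, against 3.15, 2.40 and 2.75 TPM in wild type. The line libraries were all far above wild type, with a mean 17.8 times as high. The log2 difference was 3.74 ± 0.10 (SE from the fit of 12 libraries, n = 3 each, limma adjusted p = 1.34e-09). BAK1 (AT4G33430), the co-receptor shared with brassinosteroid and immune receptors, was at 115, 115 and 121 TPM in the line and 52.9, 57.4 and 54.2 TPM in wild type. Its mean was 2.13 times as high in the line, with a log2 difference of 1.08 ± 0.07 (limma adjusted p = 8.71e-06). Engineered and native copies are counted together at each locus. At BAK1 the values sat in transcript model 1, since model 2 reached at most 2.19 TPM in any of the 6 libraries.

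Both genes were also high in the line without the compound. With mock, RGI5 averaged 47.0 ± 1.48 TPM in the line and 2.85 ± 0.52 TPM in wild type, and BAK1 averaged 105 ± 7.80 TPM in the line and 54.3 ± 3.15 TPM in wild type (SD, n = 3 each). The test of whether the line's difference was larger with rapamycin than with mock gave a log2 value of 0.09 ± 0.14 for RGI5 (limma adjusted p = 0.844) and 0.14 ± 0.09 for BAK1 (adjusted p = 0.624).

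None of the other 11 tested members of the receptor family, its co-receptors and the BIR pseudokinases that hold BAK1 inactive was called. The receptor RGI1 was at 24.1, 23.9 and 24.8 TPM in the line, against 30.4, 27.5 and 27.1 TPM in wild type, a log2 difference of -0.21 ± 0.07 (limma adjusted p = 0.182). RGI2 was at 14.9, 14.3 and 13.2 TPM in the line and 17.9, 16.1 and 17.3 TPM in wild type, a log2 difference of -0.26 ± 0.08 (limma adjusted p = 0.172). In both, the line libraries lay below those of wild type, as at 7.12% of all loci, without passing the threshold. The log2 differences were -0.11 for RGI3, -0.14 for RGI4, -0.12 for SERK1, -0.09 for SERK2, 0.04 for SERK4 and 0.12 for BIR3, with adjusted p between 0.565 and 0.895. A fit of all 30 libraries, which gives the same difference with a spread shared over 10 groups, called 663 of 20113 loci (3.30%), 397 higher (1.97%) and 266 lower (1.32%), and RGI1 was among the lower ones (limma adjusted p = 0.04).

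Of the RGF peptide genes and TPST, the enzyme that sulfates the peptides, 8 of 10 passed the filter on low values and 0 were called. RGF7 was the member with an unadjusted p under 0.05, at 47.5, 49.7 and 39.1 TPM in the line against 71.5, 64.0 and 59.0 TPM in wild type, a log2 difference of -0.51 ± 0.14 (limma adjusted p = 0.150). The line libraries were again below those of wild type (7.12% of all loci), and the fit of all 30 libraries called RGF7 lower (adjusted p = 0.0377). With mock the RGF7 difference was -0.55, and in the RGI1 line with rapamycin it was -0.70.

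Of the 22 loci, 3 fell to under 1.5 TPM in every line library. AT1G27565, an uncharacterized protein gene, was at 0.712, 0.290 and 0.366 TPM in the line, against 13.2, 12.2 and 8.44 TPM in wild type (log2 difference -3.07 ± 0.17, limma adjusted p = 3.55e-06). QQS (AT3G30720), a gene found in Arabidopsis and few relatives that affects starch content and is known for heritable differences in methylation and expression between plants, was at 1.30, 0.460 and 0.831 TPM in the line, against 6.71, 17.5 and 13.0 TPM in wild type (log2 difference -2.78 ± 0.31, limma adjusted p = 0.00431). AT2G01422, annotated as a noncoding RNA, was at 0.361, 0.148 and 0.0889 TPM in the line, against 8.41, 8.44 and 3.43 TPM in wild type (log2 difference -2.62 ± 0.30, limma adjusted p = 0.00431). The mean level in wild type was 24.7, 14.4 and 33.9 times that of the line for AT1G27565, QQS and AT2G01422. With mock the log2 differences were -3.16, -3.48 and -2.93 in the same order.

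QQS and AT1G27565 also differed between wild types that had the same ecotype label, and AT2G01422 did not stand apart in the same way. QQS was at 6.71 to 19.8 TPM in the 6 wild-type libraries of the RGI5 set, counting mock, and at 1.31 to 5.12 TPM in the 12 wild-type libraries of the other sets, so the ranges did not overlap. AT1G27565 was at 8.44 to 13.2 TPM in the RGI5 set's wild type and at 1.56 to 7.86 TPM in the other wild types. AT2G01422 was at 3.43 to 12.2 TPM in the wild type of the RGI5 set and at 4.32 to 12.3 TPM in the other wild types, ranges that overlapped. In the RGI1 line with rapamycin AT2G01422 averaged 42.5 ± 2.88 TPM, against 7.85 ± 1.28 TPM in its own wild type (SD, n = 3 each).

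On the higher side, 3 loci were at low levels in wild type. SADHU3-2 (AT3G42658), a copy of a short mobile element, was at 4.04, 6.93 and 6.73 TPM in the line, against 1.04, 1.73 and 1.12 TPM in wild type (log2 difference 1.57 ± 0.24, limma adjusted p = 0.0337). MRD1 (AT1G53480) was at 4.56, 6.84 and 2.44 TPM in the line, against 0.542, 0.362 and 0.232 TPM in wild type (log2 difference 1.95 ± 0.25, limma adjusted p = 0.0128). Both were called with mock too, with log2 differences of 1.61 and 1.55. AT3G25221 was at 7.04, 17.7 and 9.92 TPM in the line and listed at 0 in the 3 wild-type libraries, so no fold is given. Its level was erratic elsewhere, from 0 to 7.55 TPM across the 18 wild-type libraries and from 0 to 24.5 TPM in the RGI1 line with mock.

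The calls of these last loci depended on single libraries. SADHU3-2 lost its call without line library 3 (adjusted p = 0.152) and without wild-type library 2 or 4 (0.170 and 0.133). MRD1 lost it without line library 1 (0.0786) and without wild-type library 2 or 4 (0.0518 and 0.0818). AT3G25221 lost it without any one of the 6 libraries, with limma adjusted p between 0.0584 and 0.193.

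**Figure D2:**
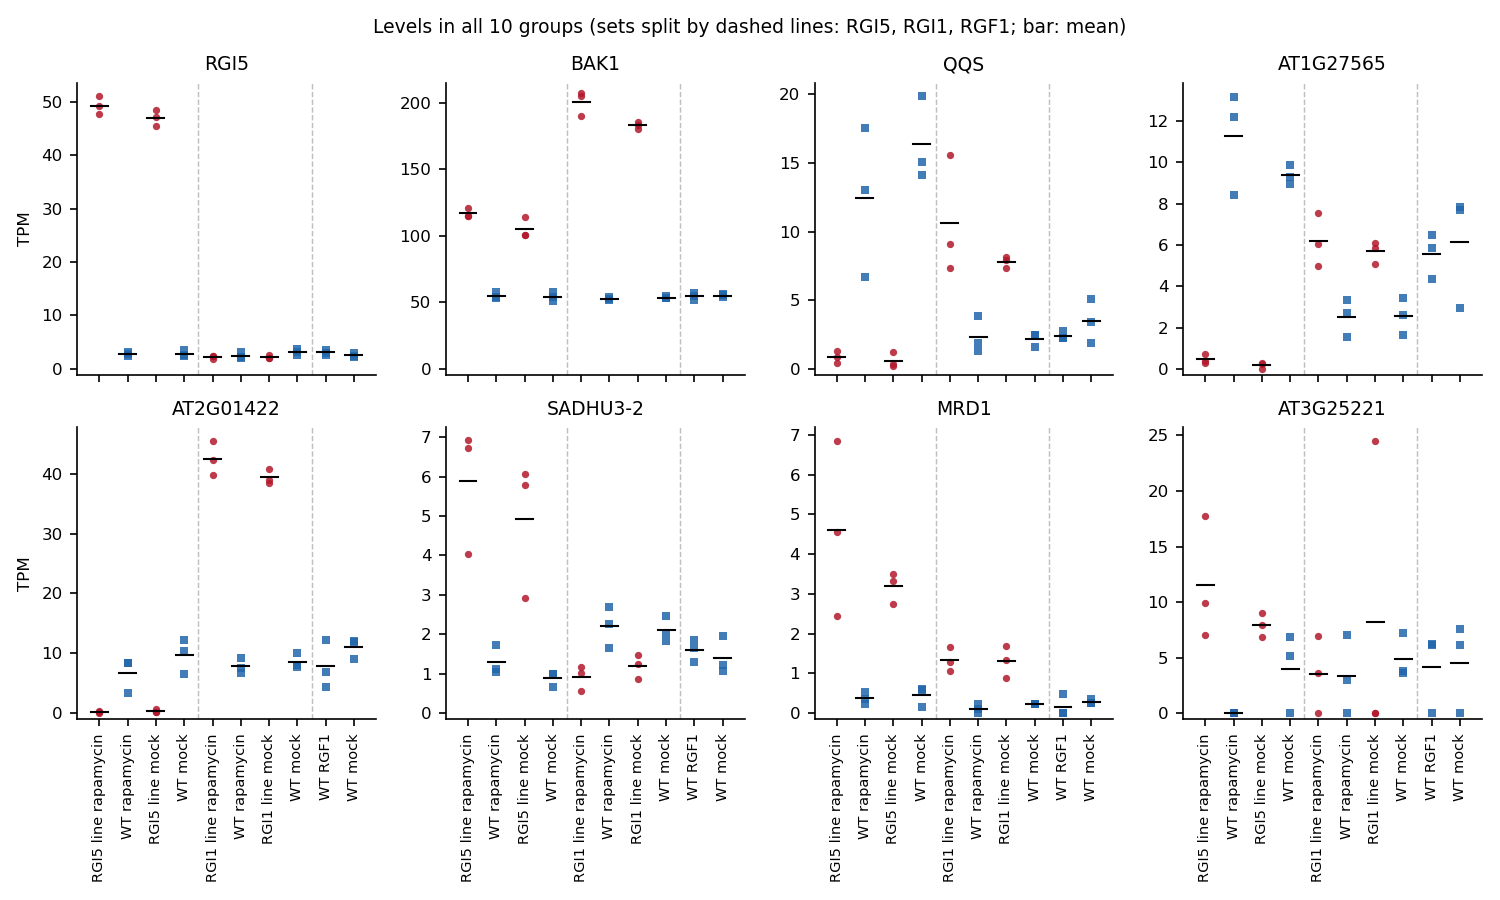
TPM of 8 loci in all 10 groups of the study, 1 point per library and a bar at the mean, with red circles for the engineered lines and blue squares for wild type (WT). Dashed lines split the RGI5, RGI1 and RGF1 sets; RGI5 is high in the RGI5 line alone, BAK1 is high in both lines, and QQS and AT1G27565 differ between the wild types of the sets.

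A pair of neighbouring genes for small secreted proteins of the lipid-transfer type fell together. AT4G12500 was at 4.34, 4.89 and 4.67 TPM in the line, against 17.6, 12.9 and 17.1 TPM in wild type (log2 difference -1.57 ± 0.18, limma adjusted p = 0.00431). AT4G12490 was at 3.30, 6.78 and 3.97 TPM in the line, against 14.8, 12.9 and 19.0 TPM in wild type (log2 difference -1.58 ± 0.21, limma adjusted p = 0.0144). The means in wild type were 3.42 and 3.33 times those of the line. The 4 other genes of the same cluster that were looked at were not called. AZI1, which is needed for systemic defence priming, averaged 91.4 ± 14.3 TPM in the line and 88.7 ± 7.01 TPM in wild type, and EARLI1 averaged 370.2 ± 62.2 TPM in the line and 339 ± 39.6 TPM in wild type (SD, n = 3 each). AT4G12510 and AT4G12520 had log2 differences of -0.47 and 0.03 (limma adjusted p = 0.262 and 0.958). Members of this cluster are close copies, so how their reads were split is uncertain.

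With mock the pair parted. AT4G12500 was lower by a called log2 difference of -1.08, and AT4G12490 differed by -0.29 (limma adjusted p = 0.0277 and 0.579). The change of the line's difference with rapamycin was -0.49 ± 0.25 for AT4G12500 and -1.28 ± 0.30 for AT4G12490, neither called (adjusted p = 0.511 and 0.203). AT4G12490 lost its call with rapamycin without line library 1 or 3 (adjusted p = 0.0741 and 0.0784) and without wild-type library 2 or 4 (0.0775 and 0.0818).

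The other lower loci were expressed at moderate levels. AT2G36690, a gene of the 2-oxoglutarate and iron-dependent oxygenase family, was at 17.0, 18.0 and 9.79 TPM in the line, against 40.2, 36.7 and 32.8 TPM in wild type (log2 difference -1.28 ± 0.20, limma adjusted p = 0.0379). AT2G41810, a cell wall protein gene of the DUF642 family, averaged 5.91 ± 1.22 TPM in the line and 15.2 ± 1.76 TPM in wild type (log2 difference -1.24 ± 0.16, limma adjusted p = 0.0109). AT1G44050, which encodes a cysteine- and histidine-rich C1 domain protein, averaged 4.86 ± 1.03 TPM in the line and 10.2 ± 1.14 TPM in wild type (log2 difference -0.95 ± 0.13, limma adjusted p = 0.0146). All 3 were lower in each line library than in each wild-type library.

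A membrane receptor, an ion channel gene and a wall-loosening gene completed the lower group. PSY1R (AT1G72300), a receptor kinase named for the sulfated peptide PSY1, was at 17.6, 17.8 and 14.7 TPM in the line, against 29.5, 25.3 and 23.7 TPM in wild type (log2 difference -0.62 ± 0.10, limma adjusted p = 0.0493). GLR2.1, a glutamate receptor-like channel, was at 13.0, 14.0 and 11.2 TPM in the line and 20.9, 18.2 and 19.9 TPM in wild type (log2 difference -0.59 ± 0.10, limma adjusted p = 0.0493). EXPA14, an expansin that loosens cell walls, was at 23.4, 25.8 and 23.9 TPM in the line and 35.3, 38.4 and 33.3 TPM in wild type (log2 difference -0.53 ± 0.08, limma adjusted p = 0.0337). EXPA14 was the 1 member called of 21 tested expansins.

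Of these 6, AT2G41810 lost its call without wild-type library 2 alone (limma adjusted p = 0.0765; 0.0497 without line library 1). AT1G44050 lost it without line library 1 or 3 and wild-type library 2 or 4 (0.0804, 0.0628, 0.103 and 0.0818). AT2G36690, PSY1R, GLR2.1 and EXPA14 kept it without line library 2 alone, with adjusted p of 0.0383 to 0.0427 there, and of 0.0540 to 0.222 without the other 5 libraries in turn.

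Genes with known roles in hormone pathways and defence were among the higher ones. AHP1 (AT3G21510), a phosphotransfer protein of the cytokinin signalling chain, was at 222, 213 and 239 TPM in the line, against 168, 156 and 143 TPM in wild type (log2 difference 0.53 ± 0.08, limma adjusted p = 0.031). IAGLU (AT4G15550), a glucosyltransferase acting on indole-3-acetate, was at 12.1, 13.3 and 12.8 TPM in the line and 8.37, 8.65 and 8.39 TPM in wild type (log2 difference 0.54 ± 0.08, limma adjusted p = 0.0386). WRKY40, a transcription factor that represses defence genes, was at 6.04, 5.65 and 6.33 TPM in the line and 3.33, 2.58 and 3.24 TPM in wild type (log2 difference 0.79 ± 0.12, limma adjusted p = 0.0337). Each line library was above each wild-type library for the 3 genes.

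The remaining higher genes encode a polyketide cyclase-like protein, an oxygenase and a pirin. AT4G14060, of a polyketide cyclase-like family, was at 51.4, 37.1 and 54.2 TPM in the line, against 21.5, 27.6 and 27.4 TPM in wild type (log2 difference 0.86 ± 0.14, limma adjusted p = 0.0452). AT5G59540, another oxygenase of the 2-oxoglutarate family, averaged 42.3 ± 3.52 TPM in the line and 27.8 ± 1.63 TPM in wild type (log2 difference 0.59 ± 0.08, limma adjusted p = 0.0222). PRN, which encodes a pirin, averaged 155 ± 5.91 TPM in the line and 115 ± 2.65 TPM in wild type (log2 difference 0.43 ± 0.07, limma adjusted p = 0.0397). PRN and AT4G14060 were the 2 loci of the 22 not called after median-ratio scaling, with log2 differences of 0.41 and 0.84 (adjusted p = 0.0695 and 0.0591).

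Without single libraries, AT5G59540 lost its call with line library 3 or wild-type library 2 or 4 left out (limma adjusted p = 0.110, 0.144 and 0.0818). AHP1, WRKY40, AT4G14060 and PRN kept it without line library 2 alone, with adjusted p of 0.0085 to 0.0448 there, and of 0.0518 to 0.193 without the other 5 in turn. IAGLU lost it without any one library (0.0520 to 0.170).

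Most of these differences were present without the compound. The mock comparison contrasts other libraries than the rapamycin comparison. Both come from the same fit of 12 libraries and share its estimate of the spread, so their p-values are not independent. Of the 22 loci, 21 had the same direction with mock, 18 of them with an unadjusted p under 0.05 (3.29% of all loci were higher with mock at that p and 10.7% lower), and 12 were called there. They were RGI5, BAK1, QQS, AT1G27565, AT2G01422, AT4G12500, GLR2.1, PRN, AT5G59540, WRKY40, SADHU3-2 and MRD1. The mock comparison called 86 loci (0.438%), 17 higher (0.0865%) and 69 lower (0.351%), so the shared loci made up 54.5% of the rapamycin calls and 14.0% of the mock calls. Of the 86, 67 had the same direction with rapamycin, 41 of them with an unadjusted p under 0.05, and 19 had the opposite direction. Median-ratio scaling moved the mock calls to 25 higher and 44 lower. Left-out libraries moved the mock count to 7, 8 and 181 without line library 1, 2 and 4, and to 29, 9 and 120 without wild-type library 2, 3 and 4.

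No locus passed the test of the change in the line's difference, rapamycin minus mock. Limma called 0 of 19652 loci (0%), with the smallest adjusted p at 0.112, while 2130 (10.8%) had an unadjusted p under 0.05, 8.24% with a positive and 2.60% with a negative change. Without wild-type mock library 4 the number called was 48, and without line mock library 1 it was 1. Of the 22 loci, 8 had an unadjusted p under 0.05 in this test. AHP1 was at 160, 182 and 170.2 TPM in the line with mock and 159, 173 and 149 TPM in wild type with mock, values that overlap, and its difference changed by 0.44 ± 0.11 with rapamycin (limma adjusted p = 0.235). AT4G14060 changed by 0.90 ± 0.20 (adjusted p = 0.187), and with mock it was at 34.4, 39.9 and 43.5 TPM in the line and 39.9, 38.3 and 42.5 TPM in wild type. The others were AT4G12490 at -1.28, AT2G36690 at -0.89, AT1G44050 at -0.61, EXPA14 at -0.31, IAGLU at 0.30 and AT3G25221, whose wild type was listed at 0.

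**Figure D3:**
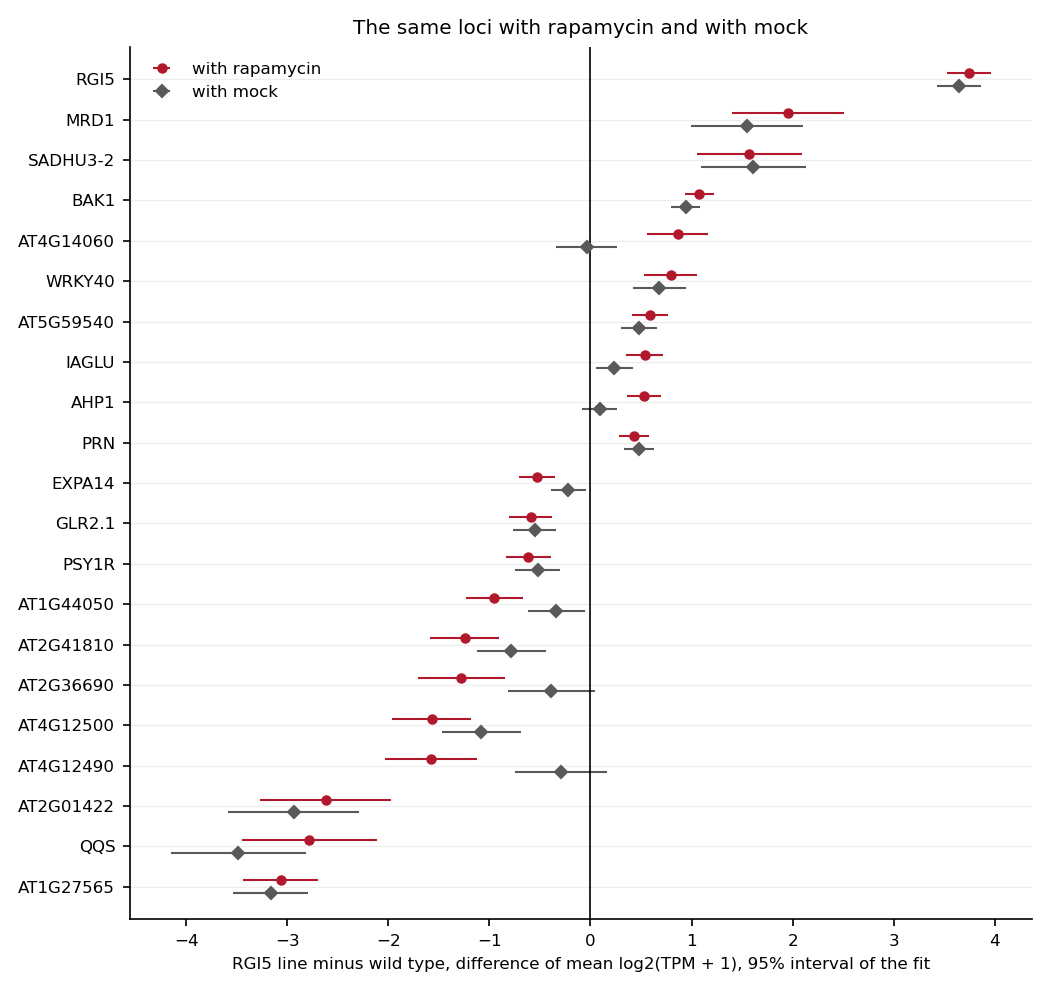
Log2 difference of the RGI5 line from wild type with rapamycin (red circles) and with mock (grey diamonds), with 95% intervals from the fit, for 21 of the 22 called loci (AT3G25221 is left out because wild type with rapamycin was listed at 0). The higher loci AT4G14060 and AHP1 have mock intervals that include 0, as do the lower loci AT4G12490 and AT2G36690, while RGI5, BAK1, QQS, AT1G27565 and AT2G01422 lie far from 0 in both.

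The RGI1 line offered the most similar comparison, in other libraries and at 1 µM in place of 100 nM, so the doses differ. It called 1580 of 19634 loci against its own wild type (8.05%), 372 higher (1.89%) and 1208 lower (6.15%). Median-ratio scaling gave 664 higher and 783 lower, and the count was 982 without RGI1 line library 1, and 905 without wild-type library 2 and again without wild-type library 4. Of the 22 loci, 12 were called in the RGI1 line, 54.5% of them and 0.759% of the RGI1 line's calls. The direction was the same for BAK1, MRD1, AT4G12490, AT4G12500, AT2G36690, AT1G44050, PSY1R and GLR2.1. It was the opposite for QQS, AT1G27565, AT2G01422 and SADHU3-2. PSY1R and GLR2.1 each had a log2 difference of -0.58 in the RGI1 line, beside -0.62 and -0.59 in the RGI5 line.

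The difference between the lines was tested in 1 fit of the 24 libraries of both sets, and 513 of 20014 loci were called (2.56%), 450 higher (2.25%) and 63 lower (0.315%) in the RGI5 line. After median-ratio scaling there were 282 calls, 176 higher and 106 lower. Of the 22, 12 had a called difference. AHP1 differed from wild type by 0.47 ± 0.11 more in the RGI5 line than in the RGI1 line (limma adjusted p = 0.026), and in the RGI1 line it was at 189.8, 181 and 198 TPM against 171, 185 and 188 TPM in its wild type. WRKY40 differed by 0.72 ± 0.17 more (adjusted p = 0.0326) and AT4G14060 by 0.80 ± 0.20 more (adjusted p = 0.036). For BAK1 the RGI5 line's difference minus that of the RGI1 line was -0.83 on the log2 scale (adjusted p = 1.65e-06). Leaving out 1 library moved the count of 513 beyond 1.5 times in 7 cases, to 270 and 278 without wild-type library 2 and 4 of the RGI5 set, to 859 without its wild-type library 3, to 162 and 315 without RGI1 line library 1 and 3, and to 235 and 169 without wild-type library 2 and 4 of the RGI1 set.

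**Figure D4:**
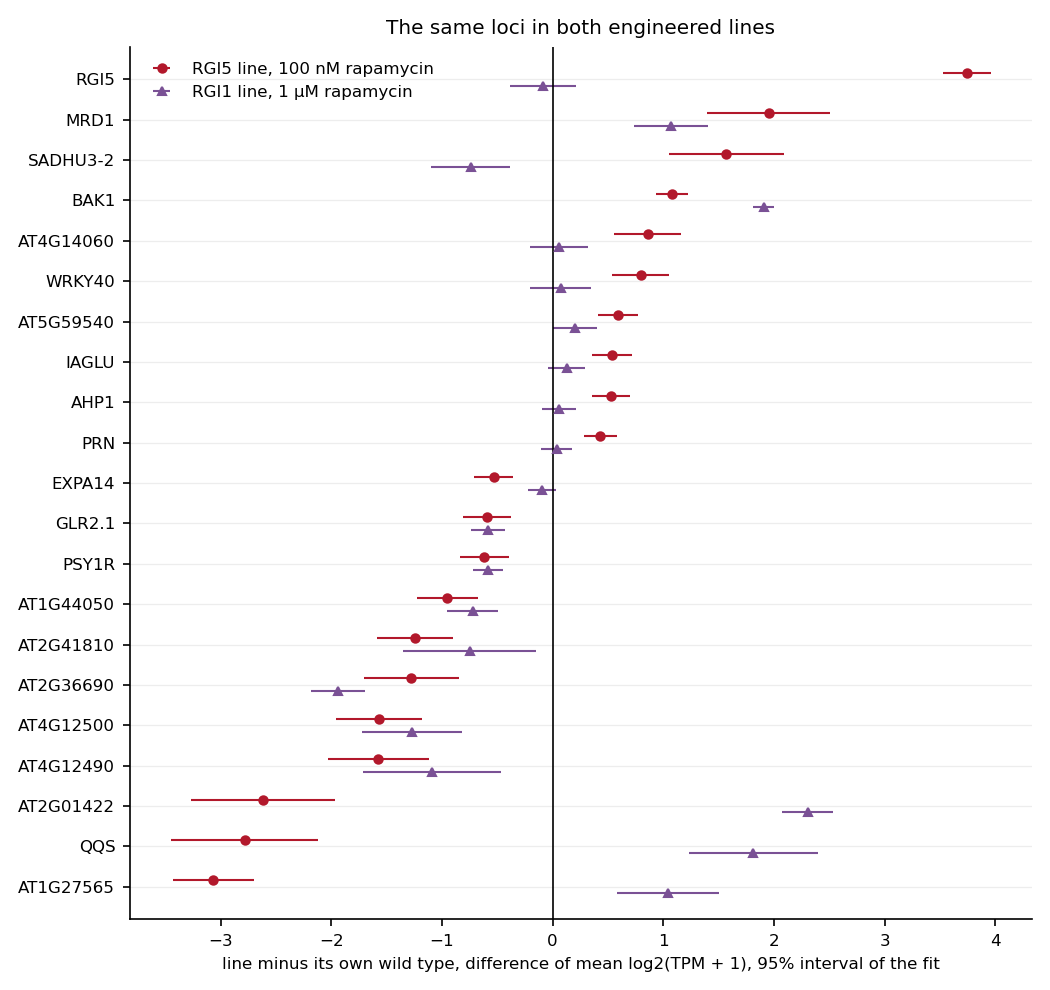
Log2 difference from the line's own wild type, both with rapamycin, in the RGI5 line at 100 nM (red circles) and the RGI1 line at 1 µM (purple triangles), with 95% intervals, for 21 of the 22 called loci (AT3G25221 left out as above). The lower group from GLR2.1 to AT4G12490 lies left of 0 in both lines, and AT2G01422, QQS and AT1G27565 lie on opposite sides.

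Gene lists for the pathways of the root were read by counts, since nearly all of their members missed the threshold. Jasmonate synthesis and response genes had the highest median of the lists, with 16 of 17 tested members above wild type, 12 with a higher level at an unadjusted p under 0.05 and 0 lower, beside 8.58% and 5.39% of all loci. Their median log2 difference was 0.44, beside 0.02 over all loci, and 0 of 17 were called. AOC2, an allene oxide cyclase of jasmonate synthesis, was at 2.39, 2.82 and 3.24 TPM in the line and 0.514, 0.598 and 0.689 TPM in wild type, a log2 difference of 1.25 ± 0.26 (limma adjusted p = 0.0903). JAZ2, a repressor that jasmonate removes and whose gene it induces, was at 62.1, 59.0 and 59.2 TPM in the line and 48.7, 40.2 and 40.5 TPM in wild type (log2 difference 0.47, adjusted p = 0.126). MYC2, the central transcription factor of the pathway, was at 49.5, 51.9 and 50.1 TPM in the line and 33.7, 39.5 and 37.5 TPM in wild type (log2 difference 0.44, adjusted p = 0.144). JOX2, a jasmonate oxidase, was at 282, 255 and 285 TPM in the line and 198, 199 and 159 TPM in wild type (log2 difference 0.57, adjusted p = 0.150). In the 4 genes the line libraries lay above those of wild type, as they did at 10.4% of all loci.

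In the fit of all 30 libraries (1.97% of all loci called higher and 1.32% lower), 8 of 19 jasmonate genes were called higher: AOC2, AOS, JAZ2, JAZ6, JAZ7, JAZ10, MYC2 and JOX2. Median-ratio scaling and quantile normalization called 0 of 17. With mock the list's median was 0.17, with 5 of 17 higher at an unadjusted p under 0.05 (3.29% of all loci), and in the RGI1 line with rapamycin it was -0.03. The change of the line's difference with rapamycin had an unadjusted p under 0.05 for 1 of 17 genes.

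Genes of the ER body, a root and seedling organelle filled with beta-glucosidases, and of the nitrile specifiers that steer glucosinolate breakdown were also mostly above wild type. Of 13 tested, 8 had a higher level at an unadjusted p under 0.05 (8.58% of all loci) and 0 a lower one, with a median of 0.34 and none called. TSA1, which takes part in ER body formation, was at 10.6, 10.1 and 12.3 TPM in the line and 6.10, 7.95 and 6.29 TPM in wild type (log2 difference 0.63, limma adjusted p = 0.0903). NAI2, needed for the organelle to form, was at 1269.8, 1194 and 1368 TPM in the line and 1023, 999 and 993 TPM in wild type (log2 difference 0.34, adjusted p = 0.132). PYK10, the main beta-glucosidase of root ER bodies, had a log2 difference of 0.14 (adjusted p = 0.510). The fit of all 30 libraries (1.97% of all loci called higher) called 7 of 13 higher, namely TSA1, NAI1, NAI2, NSP1, JAL33, PBP1 and BGLU22. Median-ratio scaling and quantile normalization called 0 of 13. With mock the median was 0.10, with 1 of 13 at an unadjusted p under 0.05.

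Ethylene genes had 8 of 16 members higher at an unadjusted p under 0.05, against 8.58% of all loci, and 0 lower, with a median of 0.21. ACO4, an enzyme of the last step of ethylene synthesis, was at 43.6, 35.7 and 44.9 TPM in the line and 21.0, 30.6 and 22.8 TPM in wild type (log2 difference 0.73, limma adjusted p = 0.115). ERF1, an ethylene- and jasmonate-responsive factor, was at 1.69, 2.20 and 2.35 TPM in the line and 0.527, 1.23 and 0.706 TPM in wild type (log2 difference 0.77, adjusted p = 0.181). None was called, and 0 of 16 were called under median-ratio scaling or quantile normalization. The fit of all 30 libraries called ACO4, ERF5 and ERS1 higher, 3 of 16, beside 1.97% of all loci. Tau and phi glutathione transferases had 10 of 32 higher and 1 lower at an unadjusted p under 0.05, the lower one being GSTF14 at -1.61 (adjusted p = 0.0829). The fit of all 30 libraries called 4 of 34 higher and 1 lower, beside 1.97% and 1.32% of all loci.

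Green tissue markers were also higher in the line beside these lists, with 5 of 9 tested at an unadjusted p under 0.05 (8.58% of all loci). Their median was 0.42, above that of the ER body list, beside 0.35 with mock, where 0 of 9 had such a p. RBCS1A and GAPA1, 2 of 9, were called higher in the fit of all 30 libraries (1.97% of all loci). RBCS1A was at 40.5, 15.6 and 23.7 TPM in the line and 5.23, 16.8 and 15.9 TPM in wild type, values that overlap. Of 109 chloroplast-encoded transcripts, 60 were higher and 2 lower at an unadjusted p under 0.05, beside 8.58% and 5.39% of all loci. Their median was 0.27, and the fit of all 30 libraries called 21 of 110 higher and 0 lower, beside 1.97% and 1.32% of all loci. Their part in the jasmonate, ER body and ethylene differences was not tested.

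**Figure D5:**
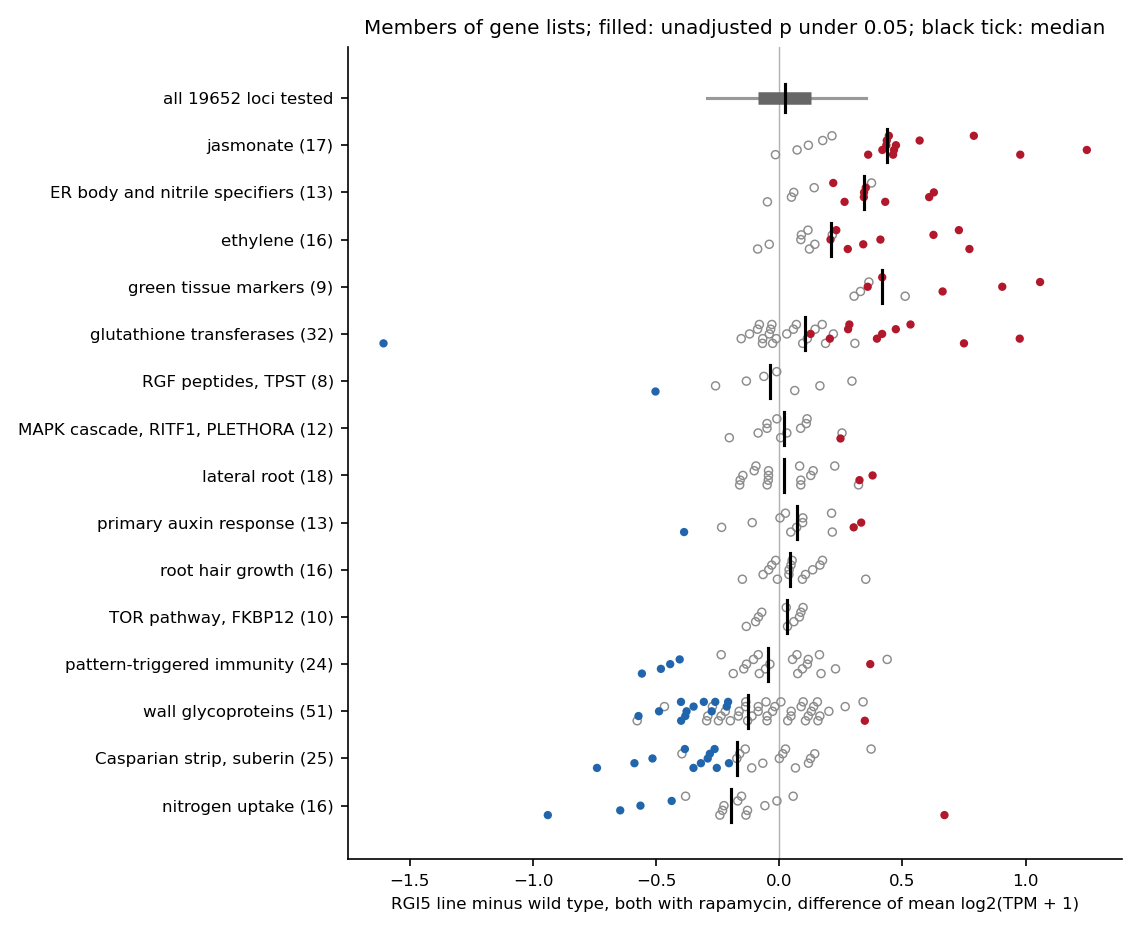
Log2 difference of the RGI5 line from wild type with rapamycin for each tested member of 15 gene lists (number tested in brackets), with filled points at an unadjusted p under 0.05 (red higher, blue lower), open points otherwise, and a black tick at the list's median. The top bar shows all 19652 loci, with the quartiles as a thick bar, the 5th to 95th percentile as a thin line and the median of 0.02 as a tick; the jasmonate median lies at 0.44 and the suberin median at -0.17.

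On the lower side stood genes of the Casparian strip and suberin, the lignin and lipid barriers of the root endodermis. Of 25 tested, 11 had a lower level at an unadjusted p under 0.05, against 5.39% of all loci, and 0 a higher one, with a median of -0.17 and none called. ABCG6, a suberin transporter, was at 10.5, 11.6 and 9.57 TPM in the line and 20.8, 17.4 and 16.7 TPM in wild type, a log2 difference of -0.74 ± 0.13 that lay just outside the threshold (limma adjusted p = 0.0504). ABCG20, another transporter of the same barrier, averaged 8.23 ± 0.335 TPM in the line and 12.3 ± 2.42 TPM in wild type (log2 difference -0.52, adjusted p = 0.0961). FAR5, which makes the fatty alcohols of suberin, was at 31.3, 31.4 and 32.6 TPM in the line and 46.3, 40.2 and 39.1 TPM in wild type (log2 difference -0.38, adjusted p = 0.0903). GPAT5 and CYP86A1, acyl transfer and hydroxylation enzymes of suberin monomers, had log2 differences of -0.26 and -0.28 (adjusted p = 0.150 and 0.164). The fit of all 30 libraries called ABCG6, ABCG20, GPAT7 and FAR5 lower, 4 of 25, beside 1.32% of all loci. Median-ratio scaling and quantile normalization called 0 of 25. With mock 9 of 25 were lower at an unadjusted p under 0.05, against 10.7% of all loci, with a median of -0.14, and in the RGI1 line the median was -0.04.

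Extensins, fasciclin-like, arabinogalactan and proline-rich wall proteins had 12 of 51 lower and 1 higher at an unadjusted p under 0.05 (5.39% and 8.58% of all loci), with a median of -0.13. The fit of all 30 libraries called FLA1, a fasciclin-like protein gene, lower, 1 of 51, beside 1.32% of all loci. AGP31 was at 82.1, 82.3 and 63.3 TPM in the line and 114, 97.3 and 107 TPM in wild type (log2 difference -0.49, limma adjusted p = 0.0913). Nitrogen uptake and assimilation genes had 4 of 16 lower and 1 higher, with a median of -0.20, and the lower count was 6 under median-ratio scaling and 8 under quantile normalization. The ammonium transporter AMT1;1 was at 86.4, 92.7 and 63.9 TPM in the line and 138, 119 and 121 TPM in wild type (log2 difference -0.65, adjusted p = 0.114), and it was called in the fit of all 30 libraries. NRT2.1, a nitrate transporter, was at 104, 241 and 106 TPM in the line and 369, 182 and 281 TPM in wild type, values that overlap. With mock the nitrogen list's median was -0.19, with 5 of 16 lower at an unadjusted p under 0.05 (10.7% of all loci). In the RGI1 line with rapamycin it was -0.26, with 9 of 16 called lower (6.15% of all loci). The wall protein list had medians of -0.02 with mock and -0.19 in the RGI1 line, which had 6 of 50 called lower and 2 higher.

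Immune genes lay on both sides of wild type, with more of them lower than higher at an unadjusted p under 0.05. Of 24 tested genes of pattern-triggered immunity, in which BAK1 is also a co-receptor, 1 was higher and 4 lower at an unadjusted p under 0.05 (8.58% and 5.39% of all loci). FRK1, a marker of that response, was at 2.66, 3.05 and 2.96 TPM in the line and 5.60, 4.71 and 3.96 TPM in wild type (log2 difference -0.56, limma adjusted p = 0.136). FRK1 and WRKY11 were called lower in the fit of all 30 libraries, 2 of 26 tested there, beside 1.32% of all loci. Across 48 tested WRKY genes 5 were higher and 12 lower at an unadjusted p under 0.05, against the same shares of all loci, and WRKY40 was the 1 called. The fit of all 30 libraries called 2 of 51 WRKY genes higher and 6 lower, beside 1.97% and 1.32% of all loci.

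Counts for genes downstream of the receptors and of lateral root formation, 4 h into treatment, were near the shares over all loci. Those shares were 8.58% higher and 5.39% lower at an unadjusted p under 0.05. Of 12 tested genes of the MAP kinase cascade and its targets, 1 had an unadjusted p under 0.05, MPK3, at 59.6, 56.1 and 58.0 TPM in the line and 47.8, 51.0 and 47.0 TPM in wild type (log2 difference 0.25, limma adjusted p = 0.151). RITF1, a transcription factor induced by RGF1, was at 18.8, 18.5 and 13.9 TPM in the line and 15.7, 17.1 and 14.9 TPM in wild type, and its 95% interval for the log2 difference ran from -0.21 to 0.38. The meristem regulators PLT1 and PLT2 had log2 differences of -0.20 and -0.01, with intervals from -0.45 to 0.05 and from -0.36 to 0.34.

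Of 18 tested lateral root genes, 2 were higher at an unadjusted p under 0.05 and 0 lower, beside 8.58% and 5.39% of all loci. Under either median-ratio scaling or quantile normalization 1 was higher and 1 lower. LBD16, a factor of lateral root founder cells, was at 13.8, 16.7 and 17.1 TPM in the line and 12.4, 12.1 and 12.7 TPM in wild type (log2 difference 0.33 ± 0.08, limma adjusted p = 0.135). LBD29 was at 9.43, 9.63 and 12.3 TPM in the line and 5.41, 9.53 and 8.92 TPM in wild type (log2 difference 0.38 ± 0.17, adjusted p = 0.352). LBD16 was above wild type in each library, as were 10.4% of all loci, and for LBD29 the groups overlapped. With mock LBD16 differed by 0.31. LBD18, GATA23 and PUCHI, further genes of early lateral root stages, were at 0.535 to 5.73 TPM with log2 differences of 0.09, -0.04 and -0.04, and their intervals included 0.

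Primary auxin response genes had 2 of 13 higher and 1 lower at an unadjusted p under 0.05, beside 8.58% and 5.39% of all loci. IAA2 was at 130, 114 and 132 TPM in the line and 102, 107 and 95.1 TPM in wild type (log2 difference 0.30, limma adjusted p = 0.126), and the fit of all 30 libraries called it. Of 16 root hair genes, 0 had an unadjusted p under 0.05. Neither did any of 10 tested genes of the TOR pathway, built on the growth kinase named as the target of rapamycin, with log2 differences of 0.09 for TOR and 0.10 for FKBP12, the plant counterpart of the protein through which rapamycin acts in yeast and animals, and intervals from -0.05 to 0.23 and from -0.07 to 0.26.

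The other lists had no call. Their counts at an unadjusted p under 0.05 stand beside 8.58% higher and 5.39% lower over all loci. Class III peroxidases had 5 of 58 higher and 4 lower (6 lower under quantile normalization), aquaporins had 4 of 28 higher and 1 lower (3 lower under either scaling), and xyloglucan endotransglucosylases had 1 of 26 higher and 3 lower. Berberine bridge enzyme-like oxidases had 5 of 16 higher and 0 lower, with a median of 0.19, beside -0.06 with mock. Core hypoxia genes had 1 of 12 higher and 0 lower, brassinosteroid genes 1 of 15 each way, clock genes 2 of 15 higher and 0 lower, cell cycle genes 0 of 18 higher and 1 lower, epidermal fate genes 0 of 10 higher and 2 lower, and indole glucosinolate and camalexin enzymes 1 of 17 higher and 2 lower. In the fit of all 30 libraries, 1.97% of all loci were called higher and 1.32% lower. It called 3 of 58 peroxidases, 2 of 15 clock genes and 1 of 17 berberine bridge enzyme-like oxidases higher. It called 2 of 26 xyloglucan endotransglucosylases lower, and 2 of 28 aquaporins higher and 1 lower.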

How the data were processed

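RNA-seq of Arabidopsis roots was read from a table in which the authors deposited TPM per transcript model and library; the unit was read from the values, and TPM keep no depth. Salmon and DESeq2 are listed in the submitters' processing notes, with neither version nor role. The index, the genome build and the gene models behind the table were not given in the sources used here. The 40812 models were summed to 32753 loci, of which 32048 matched a TAIR10.1 RefSeq table used for names alone. No column of values was left unused, and no 2 libraries held identical values. Column names of the RGI1 set's wild type differ slightly from the sample titles and were matched as the names that no other set could take.

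Loci reaching 1 TPM in at least 3 of the 12 libraries of the RGI5 set entered limma 3.58.1 (R 4.3.3; group means, intensity trend) as log2(TPM + 1), with a moderated test and Benjamini-Hochberg adjustment over all loci tested. Such differences understate changes at low levels. The RGI1 set had its own fit, and the lines were compared in 1 fit of 24 libraries. The steps were tested on simulated data.

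The members and gene lists were chosen with earlier results of these data known. Named genes were called loci whose groups did not overlap and whose mean reached 1 TPM (up to 15 each way), up to 4 called loci in each list, and a fixed set of RGI, SERK, lateral root and TOR genes; list members given as examples, RGF7 and the lipid-transfer neighbours were chosen after their values were seen. Alternatives were median-ratio scaling, quantile normalization, pseudocounts of 0.1 and 5, no filter, a mean of 5 TPM, a replicate block, other sets of libraries in the fit, a log2 limit of 1 and each library left out. Line and wild-type libraries share only the numbers 2 and 3, which the labels tie to no common source.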

Additional observations from a re-analysis of the deposited data

Results flagged for a closer look

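Of the loci called between the RGI5 line and wild type with rapamycin, 12 differed from wild type by another amount in the RGI1 line with rapamycin, by a called difference in the fit of 24 libraries (limma, 2.56% of 20014 loci called). The doses differ, 100 nM for the RGI5 line and 1 µM for the RGI1 line, and the sets have separate wild types. Values are the RGI5 line's log2 difference minus that of the RGI1 line. For the engineered pair it was 3.83 for RGI5 and -0.83 for BAK1. At the loci that vary between groups of the study it was -4.92 for AT2G01422, -4.60 for QQS, -4.11 for AT1G27565 and 2.31 for SADHU3-2. Among the other genes it was -0.43 for EXPA14, 0.39 for PRN, 0.41 for IAGLU, 0.47 for AHP1, 0.72 for WRKY40 and 0.80 for AT4G14060. IAGLU lay nearest to the threshold (adjusted p = 0.0499).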

How the results depend on the processing

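The call count of 22 (RGI5 line against wild type, rapamycin) was 22 to 27 under median-ratio scaling, quantile normalization, either pseudocount and a mean of 5 TPM. It was 6 without a filter, 8 in a fit of the 6 libraries alone, 10 with the replicate block, 663 with all 30 libraries and 12 at a log2 difference of at least 1, and 6 to 84 without 1 library. The mock count of 86 was 6 without a filter, 15 with the replicate block and 628 with all 30 libraries, and 7 to 181 without 1 library. The test of rapamycin minus mock gave 127 with all 30 libraries, and 0 to 48 without 1 library. The RGI1 line's count of 1580 was 918 with the replicate block and 986 with all 30 libraries, and 905 to 1659 without 1 library. The count of 513 between lines was 282 under median-ratio scaling and 319 under quantile normalization, and 162 to 859 without 1 library. The replicate block rests on shared numbers, with correlations of deviations of 0.12 and 0.04 for numbers 2 and 3, so it does not pair the libraries, and with it 9 of the 22 were called. Among uncalled genes the sign was not stable: SERK4 was at -0.017 with the block and, without 1 library, at -0.094 to 0.13, LBD18 at -0.12 to 0.34, GATA23 at -0.28 to 0.18, PLT2 at -0.12 to 0.11 and PUCHI at -0.13 to 0.053. The reversed values were 0.18, 0.020 and 0.047 for GATA23 without line library 1 and wild-type library 2 and 3, 0.10 and 0.11 for PLT2 without line library 3 and wild-type library 4, -0.022 and -0.12 for LBD18 without line library 3 and wild-type library 2, and 0.053 and 0.036 for PUCHI without line library 3 and wild-type library 3. The cause was not tested. Depth could not be read from TPM.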

Other observations

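Some lists stood differently with mock and with rapamycin, without a called change between the agents. Among cytosolic heat shock genes, 3 of 8 tested were called between the RGI5 line and wild type with mock, beside 0.438% of all loci. Their median log2 difference was 0.64, while with rapamycin 0 were called and the median was 0.15. The mock count over all loci ran from 7 to 181 without 1 library, and these 3 calls were not followed in those fits. The change between the agents had an unadjusted p under 0.05 and a negative sign for 4 of 8 (2.60% of all loci), and none was called. Chloroplast-encoded transcripts had a median of 0.27 with rapamycin, with 60 of 109 higher at an unadjusted p under 0.05 (8.58% of all loci). With mock their median was -0.23, with 43 of 109 lower at that p (10.7% of all loci). Mitochondria-encoded transcripts had a median of 0.05 with rapamycin (-0.0088 under quantile normalization) and -0.25 with mock. The change of the line's difference between agents had an unadjusted p under 0.05 and a positive sign for 73 of 109 chloroplast-encoded and 45 of 104 mitochondria-encoded transcripts, beside 8.24% of all loci, and none was called.

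Of 13 tested genes of sulfate transport and sulfur deficiency, 11 were above wild type and 2 below, with a median of 0.22. At an unadjusted p under 0.05, 2 were higher and 2 lower, beside 8.58% and 5.39% of all loci. The reductase gene APR3 was at a log2 difference of 0.50 (limma adjusted p = 0.0915). The uptake transporters SULTR1;1 and SULTR1;2 were at -0.34 and -0.43 (0.136 and 0.180). Iron uptake genes had 3 of 16 lower at an unadjusted p under 0.05 (5.39% of all loci), with the regulator FIT at -0.52 (0.156). These 4 genes were called in the fit of all 30 libraries, which called 3.30% of all loci.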
